A study of Mus musculus with 2 samples.

Results

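The cells described are homeostatic-type microglia: barcodes with transcripts of P2ry12 and other genes of resting microglia and without those of a set of activation genes. They were chosen by their own counts. Barcodes counted as cells if they held 1000 or more unique molecular identifiers (UMIs) from 500 or more genes, of which no more than 10% were mitochondrial. For each cell a score M was computed, the UMIs of P2ry12, Tmem119, Sparc, Gpr34, Olfml3 and Siglech per 10000. Members had M of at least 15, at least 2 UMIs of P2ry12, 0 UMIs of Cst7, Ch25h, Cd5l and Arg1, at most 1 UMI of Tnf and Il1a together, and fewer than 20 UMIs of S100a8 and S100a9 per 10000. These 14 genes are therefore described without a test. The rule found 3758 homeostatic cells among 22960 cells, 1590 in replicate 1 and 2168 in replicate 2.

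The study has 1 group with 2 replicate libraries, made from brain after ischemic stroke. The mice were of the Foxp3Egfp strain, a reporter of the transcription factor Foxp3, and were 6 to 8 weeks old. Per the labels' protocols, the sort kept CD45+CD11b+CD3-F4/80+ cells after perfusion of the vessels with PBS. The Chromium 3' v3 kit was used, and cDNA of mice with stroke was pooled. The labels call the cells macrophages and include no healthy brain and no treatment, so no change with stroke can be measured. Whether the replicates came from different animals is not given. P-values then measure only how differences between cell sets vary between these libraries, pooled over the cell sets of a fit. That variation may be technical.

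Microglia are the resident macrophages of the brain parenchyma. In the healthy brain they keep a signature that depends on TGF-beta and the transcription factor Sall1 and includes the ADP receptor P2ry12, with which their processes sense nucleotides from damaged cells. After injury they can lose parts of it and gain cytokine, interferon, lipid-handling or cell cycle programs, while monocytes enter from the blood and become macrophages that lack the signature.

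Promoters of rule genes from both sides of the gate are shown because the selection rests on them: P2ry12 and Siglech, which members had to express, and Cst7 and Tnf, whose UMIs excluded a cell. Each window runs from 250 bases before to 50 bases after the RefSeq transcription start on GRCm38.p6, printed 5' to 3' in the direction of the gene. Capitals mark GGAAGT, or ACTTCC where it lies on the other strand, the core of the site bound by PU.1, the lineage factor of macrophages and microglia.
P2ry12 (chr3:59262936-59263235, minus strand): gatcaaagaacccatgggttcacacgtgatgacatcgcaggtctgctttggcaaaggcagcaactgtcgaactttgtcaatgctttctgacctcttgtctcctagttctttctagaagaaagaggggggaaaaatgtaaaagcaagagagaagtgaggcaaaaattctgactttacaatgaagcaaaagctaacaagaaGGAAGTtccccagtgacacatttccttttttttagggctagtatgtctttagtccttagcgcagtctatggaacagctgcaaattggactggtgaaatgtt
Siglech (chr7:55767934-55768233, plus strand): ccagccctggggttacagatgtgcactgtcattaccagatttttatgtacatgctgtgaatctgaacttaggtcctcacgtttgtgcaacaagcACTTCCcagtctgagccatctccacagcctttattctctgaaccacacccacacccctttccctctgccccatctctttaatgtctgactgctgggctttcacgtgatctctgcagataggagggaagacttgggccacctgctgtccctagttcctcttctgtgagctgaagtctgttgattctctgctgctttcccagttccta
Cst7 (chr2:150570165-150570464, plus strand): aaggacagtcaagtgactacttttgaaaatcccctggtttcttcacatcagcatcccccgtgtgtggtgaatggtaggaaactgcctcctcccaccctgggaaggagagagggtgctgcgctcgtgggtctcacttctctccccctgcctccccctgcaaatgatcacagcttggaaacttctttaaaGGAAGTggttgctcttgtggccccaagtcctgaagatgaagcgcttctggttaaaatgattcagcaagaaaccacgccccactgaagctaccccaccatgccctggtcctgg
Tnf (chr17:35201958-35202257, minus strand): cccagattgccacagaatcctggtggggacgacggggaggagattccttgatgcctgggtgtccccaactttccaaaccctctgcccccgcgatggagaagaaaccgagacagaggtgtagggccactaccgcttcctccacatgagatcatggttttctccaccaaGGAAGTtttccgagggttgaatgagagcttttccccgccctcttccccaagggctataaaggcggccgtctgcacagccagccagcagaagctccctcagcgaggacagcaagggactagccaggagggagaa
Of the 14 rule genes, 11 matched the RefSeq promoter table, and 6 of these 11 windows held GGAAGT on either strand, against 23.8% of 32851 windows of the table. Tmem119, Gpr34 and Arg1 had no match. Windows of required and of excluded genes held these letters. A match is a description of the sequence, not a binding site.

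Members were shallow. Their median depth was 2200.5 UMIs in replicate 1 and 3927 UMIs in replicate 2, the lowest of 6 cell sets that do not overlap. A limit of 0 UMIs is met more easily at low depth. The other sets passed the same microglia gate (M of at least 15 and 2 UMIs of P2ry12) apart from the last. Tnf/Il1a microglia failed only the cytokine limit, with at least 2 UMIs of Tnf and Il1a, and had medians of 5011 and 6097 UMIs. Cst7-group microglia failed only by at least 1 UMI of Cst7, Ch25h, Cd5l or Arg1, at 5755 and 8228 UMIs. Microglia that failed both limits had 9416.5 and 11809 UMIs, and those with neutrophil transcripts 7835 and 9952. Lyz2/Lgals3 cells, with M under 5, no P2ry12 and at least 50 UMIs of Lyz2 and Lgals3 per 10000, were the set most like infiltrating macrophages, at 6529 and 7058 UMIs. To reduce the depth difference and the reuse of UMIs, the gates were also read on 2000 UMIs drawn from each cell of at least 4000, and values were taken from the UMIs not drawn. There the homeostatic cells (552 and 1487) had median depths of 6233 and 6229 UMIs, close to 6223 and 6541 UMIs in Tnf/Il1a microglia. These are called held-out values. They describe cells gated on the drawn UMIs, which need not be members, since the rule reads all UMIs of a cell. Only 408 and 1043 members had 4000 or more UMIs.

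**Figure D1:**
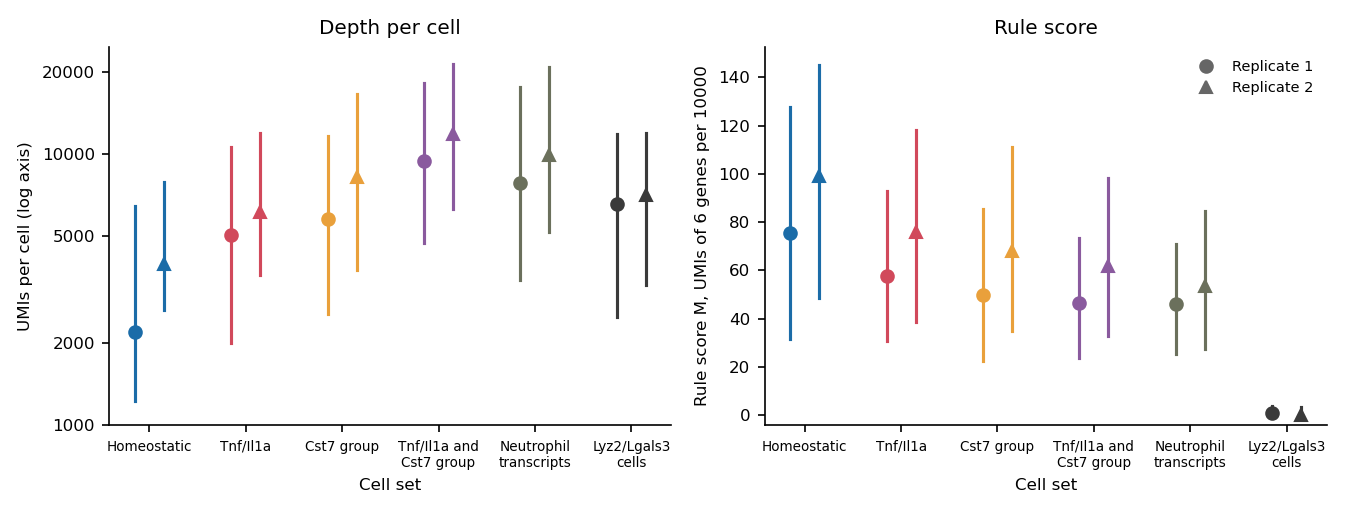
UMIs per cell (left, log axis) and rule score M (right) in the 6 gated cell sets, with the median as a symbol and the 10th to 90th percentile of cells as a line, for replicate 1 (circle) and replicate 2 (triangle). Homeostatic cells have the lowest median depth, 2200.5 and 3927 UMIs, and the highest median M, 75.4 and 99.1.

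Members made up 10.6% of the cells of replicate 1 (95% exact binomial interval 10.1 to 11.1%) and 27.4% of those of replicate 2 (26.4 to 28.4%), a mean of 19.0 ± 11.9% (SD, n = 2). Of cells that passed the microglia gate they were 30.4% of 5229 and 40.1% of 5402. The intervals cover counting error only, and the sort, the UMI minimum and depth can all set these shares. The 12795 and 7481 cells with at least 2000 UMIs were also thinned to 2000 UMIs and gated again. The 1035 and 2558 cells that then met the rule were 49.9% and 71.7% of microglia-gate cells. Not all of these are members, since the rule reads all UMIs. The libraries shared 31 cell barcodes (0.206% and 0.392% of cells), where 17.5 would be expected at random.

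Across the limit of M, levels changed little in replicate 1 and more in replicate 2, where few cells lay near it. P2ry12 is counted in M and required on both sides, so its levels here are partly set by the rule. Lyz2 is not a gene of the rule. In replicate 1, 45 members had M of 15 to 20, with 335 CPM of P2ry12 and 19372 CPM of Lyz2, and the 31 cells at M of 10 to 15 that met the other limits had 292 CPM and 22070 CPM. In replicate 2, 10 members at M of 15 to 20 had 462 CPM of P2ry12 and 2638 CPM of Lyz2, and 8 cells at 10 to 15 had 250 CPM and 9260 CPM (values in CPM are a gene's summed UMIs over all UMIs of the set, on the usual CPM scale of RNA-seq). Members with exactly 2 UMIs of P2ry12 numbered 505 and 153, and 600 and 128 cells failed with 1. Just inside the cytokine limit were 517 and 689 members with 1 UMI of Tnf or Il1a, and just outside it 343 and 404 cells with 2.

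The required genes were high in members as the rule fixes. P2ry12 (ENSMUSG00000036353, chr3:59216272-59262871, minus strand) had 1225 and 1862 CPM in homeostatic cells of replicates 1 and 2, 867 and 1303 CPM in Tnf/Il1a microglia and 622 and 891 CPM in Cst7-group microglia. Tmem119, a membrane protein that separates microglia from other macrophages, had 683 and 1085 CPM in homeostatic cells, 570.4 and 835 CPM in Tnf/Il1a microglia, 407 and 552 CPM in Cst7-group microglia and 32.5 and 29.7 CPM in Lyz2/Lgals3 cells. Within each library homeostatic cells held the higher level of both genes. Gpr34, a lysophosphatidylserine receptor, and Siglech, a sialic acid-binding lectin, had the same order, with Siglech at 555 and 746 CPM in homeostatic cells, 465 and 575 CPM in Tnf/Il1a microglia and 310.0 and 423 CPM in Cst7-group microglia. Sparc, a matrix protein, was nearly level among microglia, at 2008 and 2602 CPM in homeostatic cells, 2008 and 2411 CPM in Tnf/Il1a microglia and 1752 and 2345 CPM in Cst7-group microglia. Olfml3, a secreted olfactomedin-domain protein, varied more between libraries than between these sets, at 849.7 and 1342 CPM in homeostatic cells and 809 and 1304 CPM in Cst7-group microglia.

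UMIs that the gate had not read give levels that the rule did not fix. Median depths of the Cst7-group cells used here, 7098.5 and 8437 UMIs, were still above those of homeostatic cells. Held-out P2ry12 was 863 and 1442 CPM in homeostatic cells, 817 and 1273 CPM in Tnf/Il1a microglia and 636 and 948 CPM in Cst7-group microglia, so that the gap to Tnf/Il1a microglia was small. Held-out Tmem119 was 567 and 841 CPM in homeostatic cells and 615 and 817 CPM in Tnf/Il1a microglia, with no common order in the libraries. Transcripts of excluded genes were present. Held-out Cst7, a cystatin induced in activated microglia, was 97 and 67.8 CPM in homeostatic cells, 68.6 and 57.1 CPM in Tnf/Il1a microglia and 192 and 287 CPM in Cst7-group microglia. Held-out Tnf, the inflammatory cytokine, was 229 and 127 CPM in homeostatic cells and 750.0 and 848 CPM in Tnf/Il1a microglia. Il1a, the interleukin-1 alpha cytokine, followed with 186 and 149.8 CPM in homeostatic cells and 463 and 677 CPM in Tnf/Il1a microglia. The homeostatic cells of this setting had 0 drawn UMIs of Cst7 but could hold 1 drawn UMI of Tnf or Il1a. Free RNA held 56.7 and 86.4 CPM of Cst7 and 209.6 and 222 CPM of Tnf in barcodes under 100 UMIs. The part of free RNA in the held-out values was not tested.

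**Figure D2:**
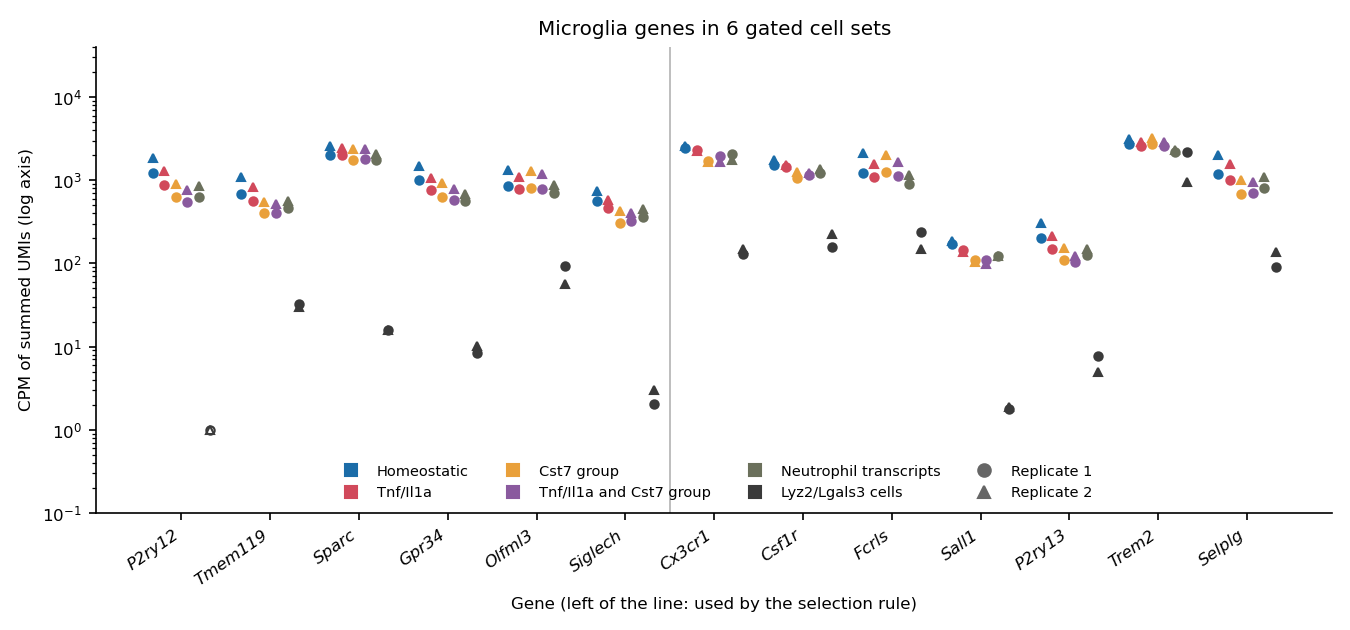
CPM of summed UMIs (log axis) of 13 microglia genes in the 6 cell sets, left of the line the 6 genes of the score and right of it 7 genes the rule did not use; circles are replicate 1 and triangles replicate 2, and open symbols at 1 stand for 0. Lyz2/Lgals3 cells are lowest in both libraries for each of the 13 genes, with the smallest gap for Trem2, at 2699.6 and 3134 CPM in homeostatic cells and 2164 and 944 CPM in Lyz2/Lgals3 cells.

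Genes of microglia identity that the rule did not use were present in members of both libraries. Such genes were also present in other microglia-gate sets, so presence alone does not bear on the homeostatic part of the label. The 44 signature genes outside the rule summed to 84775.5 and 105663 CPM in members. Their sums were 77204.9 and 90069 CPM in Tnf/Il1a microglia and 66285 and 78635.2 CPM in Cst7-group microglia. In members the fractalkine receptor Cx3cr1 had 2413 and 2605 CPM, and the CSF1 receptor Csf1r, on which microglia depend, 1529 and 1776 CPM. Sall1, the transcription factor that holds microglia identity, had 170.3 and 186 CPM. P2ry13, a second ADP receptor, had 204 and 307 CPM and Selplg, the P-selectin ligand, 1191 and 2015 CPM. Absence of activation genes held only for those named in the rule. Members still had 3679 and 2709.6 CPM of the chemokine Ccl4, 1707 and 1501 CPM of Ccl3 and 1863 and 1687 CPM of the immediate early gene Fos. They also had 35673 and 13421 CPM of Apoe, the lipid carrier that rises in disease-associated microglia.

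Against Tnf/Il1a microglia, members were lower in many inflammatory and immediate early genes where the fit was over microglia alone, and the number of calls depended on the fit. Counts were summed per library and set, and edgeR's quasi-likelihood test was fitted over all 6 sets with the library as a block. There 2 of 11754 genes passed an adjusted p of 0.05 (0.017%), Ptn as the 1 higher gene (0.00851%) and Egr3 as the 1 lower gene (0.00851%). Of the 36 tested genes of the NF-kB and inflammatory list, 0 passed in this fit, while 23 were lower and 0 higher at an unadjusted p under 0.05, and DESeq2 called 7 lower. The median log2 fold change of the list was -0.95, beside 0.006 over all genes. A fit over the 5 microglia-gate sets alone, added after seeing the data, called 27 genes higher (0.233%) and 161 lower (1.39%), together 1.63% of 11566. In it 25 of 36 NF-kB and inflammatory genes and 13 of 20 immediate early genes fell, and none of either list rose. With held-out values the same fit called 0.356% of 8992 genes higher and 1.02% lower, 1.38% in all, with 21 of the 36 and 11 of the 20 lower. Members were chosen on Tnf and Il1a, and the direction of genes that vary with them is not independent of the rule. Markers of macrophages moved with the groups on held-out values over microglia sets. There 11 of 18 monocyte and macrophage genes were higher in homeostatic cells and 0 lower, with a median of 1.07. On all UMIs the same fit had a median of -0.10, with 0 called and 0 at an unadjusted edgeR p under 0.05. In the fit over all 6 sets the median was -0.08 with no call (0 at an unadjusted p under 0.05, and 0 by DESeq2). The part of these markers in the result was not tested.

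Egr3, an early growth response factor, fell in the fit over all sets. It had 21.4 and 16 CPM in homeostatic cells, against 44.5 and 37.6 CPM in Tnf/Il1a microglia, and the log2 fold change was -1.26 ± 0.12 (SE; edgeR adjusted p = 0.0178). Homeostatic cells were lower in both libraries. Ptn, the growth factor pleiotrophin, rose with 41.2 and 49.5 CPM in homeostatic cells and 10.9 and 9.54 CPM in Tnf/Il1a microglia (log2 fold change 2.03 ± 0.19, edgeR adjusted p = 0.0178). Its UMIs lay in 10 of 1590 homeostatic cells of replicate 1 and 9 of 2168 of replicate 2, so this call rests on a handful of cells and does not describe the members as a whole.

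In the fit over microglia sets, the inflammatory genes that fell included cytokines, chemokines and feedback inhibitors of NF-kB. Il1b, the interleukin-1 beta cytokine, had 152 and 115 CPM in homeostatic cells and 439 and 541 CPM in Tnf/Il1a microglia (log2 fold change -1.96 ± 0.28 there, edgeR adjusted p = 0.00438). Cxcl10, an interferon- and NF-kB-induced chemokine, had 118 and 65.6 CPM in homeostatic cells and 334 and 316 CPM in Tnf/Il1a microglia, a log2 fold change of -1.96 ± 0.24 (edgeR adjusted p = 0.00171). Nfkbia, which retains NF-kB in the cytoplasm, had 1006 and 848 CPM in homeostatic cells and 2166 and 2554 CPM in Tnf/Il1a microglia. Its log2 fold change was -1.46 ± 0.14, and -1.03 ± 0.14 on held-out values. Tnfaip3, which encodes the inhibitor A20, changed by -1.46 and the activation marker Cd83 by -1.52 on the log2 scale. Ccl4 fell as well, with a log2 fold change of -0.99, and homeostatic cells were below Tnf/Il1a microglia in both libraries for each of these genes. Cxcl2, a neutrophil chemokine, did not pass (edgeR adjusted p = 0.0568) at 411 and 121 CPM in homeostatic cells and 869 and 472 CPM in Tnf/Il1a microglia.

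Immediate early genes formed another group that fell. Fos had 1863 and 1687 CPM in homeostatic cells and 2698 and 3217 CPM in Tnf/Il1a microglia (log2 fold change -0.86 ± 0.13, edgeR adjusted p = 0.00495 over microglia sets). The zinc finger factor Egr1 changed by -0.81 and the stress factor Atf3 by -0.93 on that scale. Jun, the partner of Fos in AP-1, did not pass at 1971 and 2555 CPM in homeostatic cells and 1983 and 3191 CPM in Tnf/Il1a microglia. Few genes rose. Sox4, a developmental transcription factor, had 146 and 187 CPM in homeostatic cells and 91.3 and 114 CPM in Tnf/Il1a microglia (log2 fold change 0.58 ± 0.10, edgeR adjusted p = 0.0123). Hes1, a Notch target, changed by 0.66. The heat shock gene Hspa1b passed on all UMIs (log2 fold change 0.75) but not on held-out ones (0.47, edgeR adjusted p = 0.472), and it may share reads with Hspa1a.

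Few genes of the homeostatic signature passed between members and Tnf/Il1a microglia. Of 44 measured signature genes outside the rule, 0 passed in the fit over all sets (5 were higher and 0 lower at an unadjusted edgeR p under 0.05, and DESeq2 called 0). In the fit over microglia sets 1 passed, Slc2a5, with 11 higher and 1 lower at an unadjusted edgeR p under 0.05. Over all genes 0.233% were called higher there and 1.39% lower. There 34 of the 44 had a positive fold change on all UMIs and 16 on held-out ones. With cells thinned to 1000 UMIs, the list had medians of 100 and 111 UMIs in members and 81 and 94 in Tnf/Il1a microglia. The median log2 fold change was 0.12 on all UMIs and -0.03 on held-out ones. Cx3cr1 had 2413 and 2605 CPM in homeostatic cells and 2329 and 2240.5 CPM in Tnf/Il1a microglia, with a log2 fold change of 0.02 ± 0.11. Slc2a5, a fructose transporter, had 114 and 169.9 CPM in homeostatic cells and 84.6 and 110.3 CPM in Tnf/Il1a microglia. Its log2 fold change was 0.42 ± 0.09 on all UMIs and -0.20 ± 0.14 on held-out ones, the opposite sign. A p that misses the threshold does not show that the levels are equal.

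Against Cst7-group microglia, members were higher in part of the homeostatic signature and lower in disease-associated, lysosomal, respiratory chain, glycolytic and cell cycle genes. In the fit over all sets 390 genes rose (3.32%) and 628 fell (5.34%), 8.66% of 11754 in all. Of the 44 homeostatic genes 15 rose and 0 fell, with a median log2 fold change of 0.42 beside 0.024 over all genes. Of the 31 tested disease-associated genes 17 fell and 0 rose, with a median of -0.89. The number of calls depended on the setting. With cells of at least 2000 UMIs, 1000 genes and at most 5% mitochondrial UMIs the fit called 0 genes, with 2287 at an unadjusted edgeR p under 0.05. On held-out values the fit over all sets called 0 genes, with 788 at an unadjusted edgeR p under 0.05, and the fit over microglia sets called 1.23% of 8992 genes higher and 2.81% lower, 4.05% in all. In that fit 11 of 44 homeostatic genes rose and 2 fell, and 23 of 31 disease-associated genes fell, with medians of 0.24 and -0.46. On all UMIs the fit over microglia sets called 10.3% of genes higher and 12.8% lower, 23.1% in all, with 30 of 44 homeostatic genes higher and 2 lower and 27 of 31 disease-associated genes lower. Macrophage markers moved with this comparison too. Of 18 monocyte and macrophage genes 0 passed over all sets (0 at an unadjusted p under 0.05 with edgeR, and 0 by DESeq2; median -0.73), 8 were lower and 0 higher over microglia sets, and 7 were lower and 0 higher there on held-out values (median -0.64). Of 8 tested border macrophage genes 1 fell over all sets, the folate receptor gene Folr2 (log2 fold change -1.79). Their part in the result was not tested. Both comparisons with microglia sets use the same homeostatic cells.

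**Figure D3:**
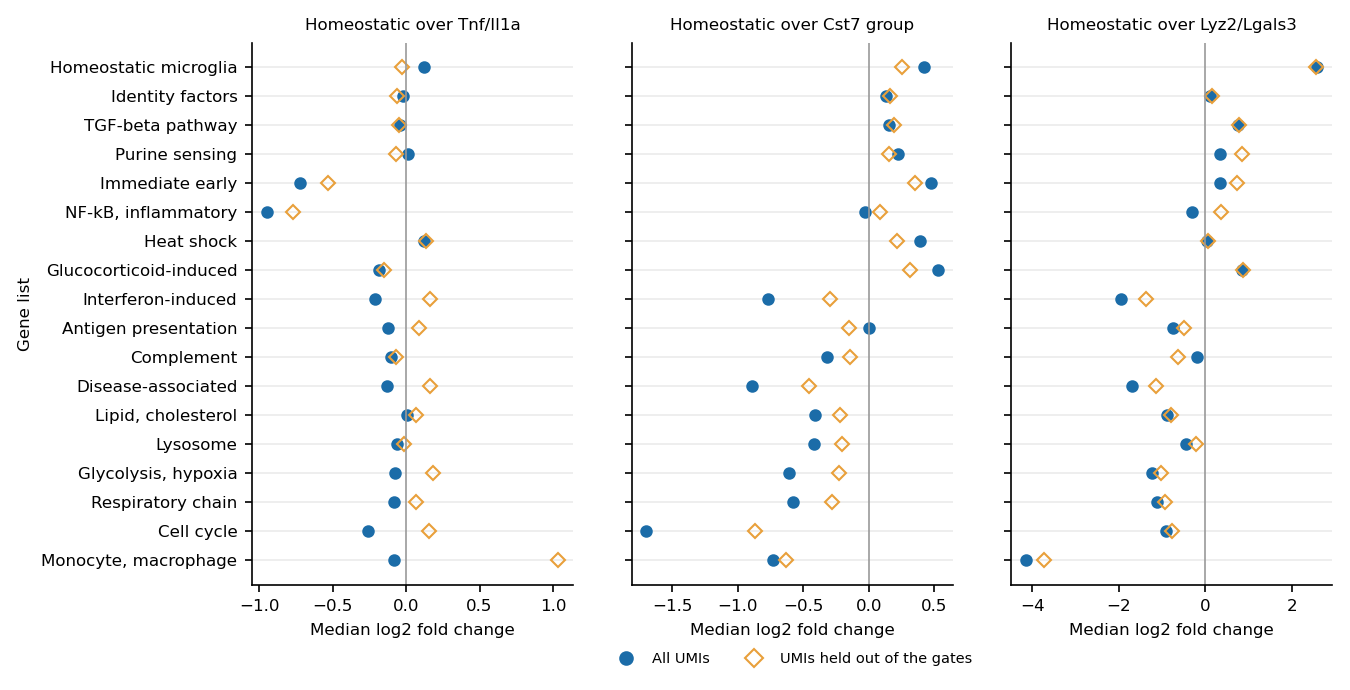
Median log2 fold change of the tested members of 18 gene lists, homeostatic cells over Tnf/Il1a microglia (left), over Cst7-group microglia (middle) and over Lyz2/Lgals3 cells (right), each with its own horizontal scale; filled circles use all UMIs and open diamonds the UMIs the gates had not read. Against Tnf/Il1a microglia the NF-kB list lies at -0.95 and the homeostatic list at 0.12; against Cst7-group microglia the disease-associated list lies at -0.89, and at -0.46 on held-out UMIs.

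The genes that rose against Cst7-group microglia included receptors and signalling genes. Slc2a5 had 114 and 169.9 CPM in homeostatic cells and 52.5 and 73.1 CPM in Cst7-group microglia, a log2 fold change of 0.99 ± 0.12 (edgeR adjusted p = 0.0141). The groups did not overlap. Entpd1, which breaks down extracellular ATP and encodes CD39, had 212 and 317 CPM in homeostatic cells and 123 and 146 CPM in Cst7-group microglia (log2 fold change 0.78 ± 0.12, edgeR adjusted p = 0.0143). The adenosine receptor Adora3 had a log2 fold change of 0.55 and Selplg of 0.72. Tgfbr1, a receptor of TGF-beta, had 571 and 690.3 CPM in homeostatic cells and 321 and 356 CPM in Cst7-group microglia (log2 fold change 0.71 ± 0.13, edgeR adjusted p = 0.019). Smad7, an inhibitor that TGF-beta induces, had a log2 fold change of 0.65, and these were the 2 of 17 TGF-beta genes that rose, beside 3.32% of all genes. On held-out values over microglia sets 4.05% of all genes passed and 0 of the 17, neither Tgfbr1 nor Smad7 (edgeR adjusted p = 0.071 for Smad7). At an unadjusted edgeR p under 0.05, 5 were higher and 1 lower there.

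Sall1, one of the homeostatic genes that rose, had 170.3 and 186 CPM in homeostatic cells and 109 and 105 CPM in Cst7-group microglia (log2 fold change 0.55 ± 0.09, edgeR adjusted p = 0.0155), and 0.55 on held-out values over microglia sets. Of 25 other identity factors 4 rose and 0 fell, beside 3.32% and 5.34% of all genes. Mef2a, a MADS-box factor of microglia, and Maf, a macrophage factor, had log2 fold changes of 0.55 and 0.53. Txnip, a thioredoxin inhibitor that glucocorticoids induce, had 540.4 and 689 CPM in homeostatic cells and 253 and 281 CPM in Cst7-group microglia (log2 fold change 1.01 ± 0.14, edgeR adjusted p = 0.0141), and Nr3c1, the glucocorticoid receptor, changed by 0.43. Maf and Nr3c1 did not pass on held-out values. Cx3cr1 and Csf1r lay near the threshold, with log2 fold changes of 0.40 ± 0.11 and 0.35 ± 0.10 and edgeR adjusted p of 0.0535 and 0.0738. Trem2, the lipid receptor of disease-associated microglia, did not pass, at -0.22.

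Of 26 lipid and cholesterol genes 5 fell and 0 rose, where 5.34% of all genes fell and 3.32% rose. Of 17 growth factor genes 1 fell, Igf1, and 1 rose, Pdgfb, a platelet-derived growth factor (log2 fold change 0.68). Counts this small are near these shares. On held-out values over microglia sets 2 of 14 tested growth factor genes fell and 0 rose, beside 2.81% and 1.23% of all genes. At an unadjusted edgeR p under 0.05, 4 were lower and 1 higher there. Lpl, lipoprotein lipase, had 126 and 46.7 CPM in homeostatic cells and 323 and 271 CPM in Cst7-group microglia (log2 fold change -2.17 ± 0.42, edgeR adjusted p = 0.0211). Igf1, insulin-like growth factor 1, had 84.5 and 20.9 CPM in homeostatic cells and 219 and 93.2 CPM in Cst7-group microglia, a log2 fold change of -1.95 ± 0.27 (edgeR adjusted p = 0.0141). For both genes homeostatic cells of replicate 1 were far above those of replicate 2, while each library alone had the lower value in homeostatic cells. Apoe had 35673 and 13421 CPM in homeostatic cells and 46422 and 29397 CPM in Cst7-group microglia (log2 fold change -0.93 ± 0.23, edgeR adjusted p = 0.0421), and -0.35 on held-out values. Fabp3, a fatty acid-binding protein, had a log2 fold change of -2.20 and Cd72, a lectin receptor, of -1.97. Spp1, osteopontin, did not pass with 2257 and 118 CPM in homeostatic cells and 3521 and 1065 CPM in Cst7-group microglia (edgeR adjusted p = 0.124), where the libraries were far apart.

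Metabolic and proliferation genes fell too. Of all genes, 5.34% fell over all sets, 12.8% over microglia sets and 2.81% there on held-out values. Of 28 respiratory chain genes 22 fell, with a median log2 fold change of -0.58, while over microglia sets 26 fell on all UMIs and 14 on held-out ones. Of 24 glycolysis and hypoxia genes 7 fell, among them Pkm and Gapdh at -1.10 and -0.99. Of 30 lysosomal genes 8 fell, including Ctsb, which encodes cathepsin B, with 2896 and 1884 CPM in homeostatic cells and 4673 and 3930.5 CPM in Cst7-group microglia (log2 fold change -1.06 ± 0.17, edgeR adjusted p = 0.0155). Of 20 cell cycle genes 14 fell, with a median of -1.70. Mki67, the Ki-67 antigen, had 9.02 and 3.92 CPM in homeostatic cells and 34.5 and 36.6 CPM in Cst7-group microglia (log2 fold change -2.79 ± 0.50, edgeR adjusted p = 0.0178). Over microglia sets 20 of 20 fell on all UMIs and 5 of 20 on held-out ones. The interferon list had a median of -0.77, with 1 of 28 genes past the threshold, Bst2, which encodes tetherin. That share is not above the 5.34% of all genes that fell. Over microglia sets 23 of the 28 fell on all UMIs and 6 on held-out ones. On held-out values the medians of the respiratory chain, glycolysis, lysosomal, cell cycle and interferon lists were all closer to 0 in the fit over microglia sets, at -0.29, -0.23, -0.21, -0.96 and -0.29.

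Against Lyz2/Lgals3 cells, members were higher in the microglia signature and lower in that of monocytes and macrophages. The fit called 3374 genes higher (28.7%) and 3401 lower (28.9%), 57.6% of 11752 in all. Of 44 homeostatic genes 40 rose and 0 fell, with a median log2 fold change of 2.60. All 16 tested genes of the monocyte and macrophage list fell, with a median of -4.16, and 20 of 28 interferon genes fell. On held-out values 41 of 44 homeostatic genes rose and 15 of 16 monocyte and macrophage genes fell, where 47.6% of 9461 genes were called. Since M and P2ry12 chose both sets, a high signature in members is close to the rule.

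The gene with the largest fold change among those at 50 CPM or more was Csmd3, which encodes a large membrane protein, with 48 and 95.8 CPM in homeostatic cells and 0.133 and 0.316 CPM in Lyz2/Lgals3 cells (log2 fold change 7.86 ± 0.22, edgeR adjusted p = 6.52e-08). Sall1 had 170.3 and 186 CPM in homeostatic cells and 1.77 and 1.90 CPM in Lyz2/Lgals3 cells (log2 fold change 6.11 ± 0.12, edgeR adjusted p = 2.34e-08). Slc2a5 had 114 and 169.9 CPM in homeostatic cells and 0.567 and 0.475 CPM in Lyz2/Lgals3 cells. Tmem100, a membrane protein, had 40.2 and 66.5 CPM in homeostatic cells and 0.2 and 0.158 CPM in Lyz2/Lgals3 cells (log2 fold changes 7.35 ± 0.18 and 7.36 ± 0.27). Sall1, Slc2a5 and Tmem100 were near 0 in Lyz2/Lgals3 cells of both libraries. Slc1a3, a glutamate transporter known from astrocytes, had 91.5 and 129.5 CPM in homeostatic cells and 0.6 and 0.475 CPM in Lyz2/Lgals3 cells. The 9 astrocyte genes, Slc1a3 among them, summed to 106 and 136 CPM in members, and of these only Gfap and Cldn10 were at 0 in both libraries. The part of astrocyte RNA in the Slc1a3 level was not tested. Cst3, which encodes cystatin C, had 46240 and 54836 CPM in homeostatic cells and 2858 and 2891 CPM in Lyz2/Lgals3 cells (log2 fold change 3.63 ± 0.11, edgeR adjusted p = 7.35e-08). Of 17 TGF-beta genes 10 rose and 2 fell, beside 28.7% and 28.9% of all genes, with Smad7 at 2.89 and the E-box repressor Zeb1 at 3.80. Tgfbi, a matrix protein that TGF-beta induces, fell (-3.68). Ccl4 and Ccl3 rose by 1.92 and 1.53 on the log2 scale, and Egr1 by 2.65.

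Genes of infiltrating and lipid-laden macrophages were lower in members. Pf4, a chemokine of border and infiltrating macrophages, had 129 and 15.1 CPM in homeostatic cells and 1285 and 1402 CPM in Lyz2/Lgals3 cells (log2 fold change -5.84 ± 0.79, edgeR adjusted p = 0.000281). Gpnmb, a glycoprotein of lipid-laden phagocytes, had 401 and 7.85 CPM in homeostatic cells and 2992 and 686 CPM in Lyz2/Lgals3 cells, a log2 fold change of -4.97 ± 0.76 (edgeR adjusted p = 0.000591). Fabp5, a fatty acid-binding protein, had 1016 and 94.4 CPM in homeostatic cells and 7655 and 3210.1 CPM in Lyz2/Lgals3 cells. The 2 libraries of members were far apart for all of these and still below Lyz2/Lgals3 cells of their own library. Ly6c2, a marker of inflammatory monocytes, had 11 and 6.48 CPM in homeostatic cells and 37.8 and 403 CPM in Lyz2/Lgals3 cells (log2 fold change -4.98 ± 1.03, edgeR adjusted p = 0.00308). Of 28 respiratory chain genes all 28 fell, with a median of -1.12, where 28.9% of all genes fell and 28.7% rose. Of 20 antigen presentation genes 12 fell and 3 rose, with Cd74, the invariant chain, at -2.53. Trem2 did not pass (log2 fold change 0.41 ± 0.32, edgeR adjusted p = 0.305).

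Markers of other cell types were found in members at sums that differed widely between lists. The 18 monocyte and macrophage genes, which include Lyz2 and Lgals3, summed to 6665 and 1729 CPM in homeostatic cells, 35729 and 37034 CPM in Lyz2/Lgals3 cells and 16034 and 7862 CPM in free RNA. None of the 18 was at 0. The 8 endothelial genes summed to 428 and 557 CPM in homeostatic cells, 10 dendritic cell genes to 184 and 261 CPM, 7 B cell genes to 176 and 237 CPM and 11 border macrophage genes to 197 and 54.4 CPM. The 9 astrocyte genes summed to 106 and 136 CPM and 8 oligodendrocyte genes to 46.8 and 68.3 CPM. The 13 neutrophil genes summed to 81.1 and 38.9 CPM with Ly6g at 0, 12 T and NK cell genes to 30.8 and 18.7 CPM, and 8 neuronal genes to 6.86 and 4.22 CPM with Syt1 and Stmn3 at 0. The oligodendrocyte gene Olig1 was at 0 as well. The 5 erythrocyte genes summed to 219 and 2059 CPM. The hemoglobin gene Hbb-bs lay in 23 of 1590 and 51 of 2168 members, and 1 cell held 79.5% of its UMIs in replicate 1 and 53.8% in replicate 2. The part of these transcripts in the comparisons was not tested.

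Members varied from cell to cell in genes of several kinds. With every member thinned to 1000 UMIs, 85 of 2501 genes had a Fano factor (variance over mean; 1 for pure counting noise) of at least 1.5 in both libraries, and the median over genes was 1.01. Ranked by the lower of the libraries, Hbb-bs was first with 73.1 and 384 and Apoe next with 57.6 and 46.8. Cd74 followed with 11.2 and 13.6, the cystatin Cst3 with 13.3 and 10.4, and Ccl4 with 8.28 and 9.33. Lyz2, lysozyme, had 14.4 and 5.09, and Spp1 17.7 and 3.57, so replicate 1 was the more varied for both. Fos had 3.34 and 5.23 and the heat shock gene Hspa1a 3.30 and 4.06. Ccl4 had UMIs in 1240 of 1590 and 1357 of 2168 members. In thinned cells the 20 immediate early genes had a median of 14 UMIs per member in replicate 1 (10th to 90th percentile 3 to 32.1) and 13 in replicate 2 (2 to 34). The Fano factors are not independent of the rule, since all genes come from the cells it chose.

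Part of this variation ran along the score M. Members with M of 15 to 50 (379 and 228 cells) had 45.3 and 45 CPM of Slc2a5, and those with M of 100 or more (397 and 1064 cells) 234 and 252 CPM. Apoe ran the other way, at 65799 and 40809 CPM with M of 15 to 50 and 5975 and 3235 CPM with M of 100 or more. Members low in M thus held more than 10 times as much Apoe as members high in M, in both libraries. M is the score that chose the members, and M and CPM are shares of the same UMIs. Trends along M are therefore not independent of the rule. Lyz2 was at 10606 and 3604 CPM in the low group and 751 and 475 CPM in the high group. The immediate early list did not follow M in this way. Its sum was 11542, 17110 and 16011 CPM from low to high M in replicate 1 and 16141, 16323 and 14818 CPM in replicate 2. Depth moved with M, with median depths of 4658, 2195 and 1524 UMIs from low to high M in replicate 1 and 5633, 4371.5 and 3578.5 UMIs in replicate 2, and its part was not tested.

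**Figure D4:**
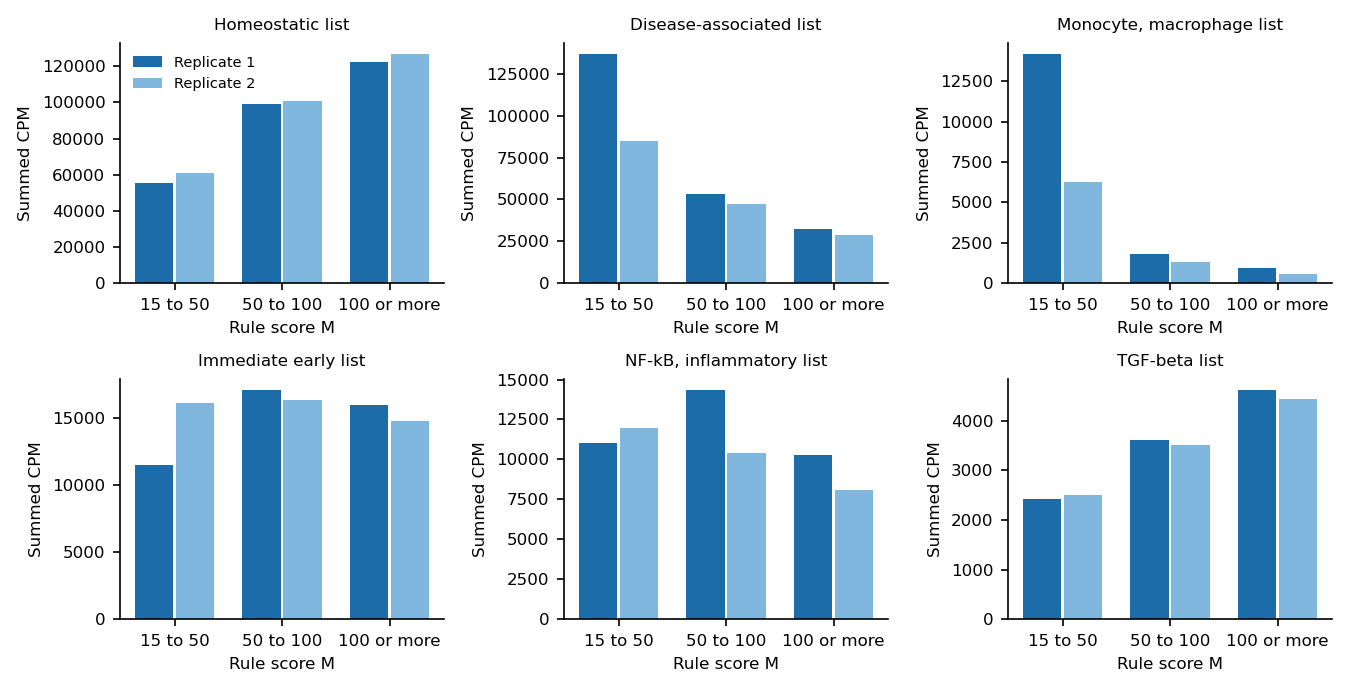
Summed CPM of 6 gene lists in homeostatic cells with M of 15 to 50, 50 to 100 and 100 or more, for replicate 1 (dark bars) and replicate 2 (light bars), with vertical axes from 0. The homeostatic and TGF-beta lists are highest in cells with high M, and the disease-associated and monocyte and macrophage lists in cells with low M, for example 137020 and 84950 CPM of disease-associated genes at M of 15 to 50.

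The libraries' members differed in macrophage genes. Of 2824 genes with at least 50 CPM in either library, 45 were at least 2-fold higher in replicate 1 (1.59%) and 8 in replicate 2 (0.283%). There is 1 library on each side, so these are descriptions without a test. Gpnmb had 401 and 7.85 CPM in replicates 1 and 2, Spp1 2257 and 118 CPM and Fabp5 1016 and 94.4 CPM. Ms4a7, a membrane protein used to tell macrophages from microglia, had 159 and 13.1 CPM. Of the 45 genes, 37 were at least 2-fold higher in Lyz2/Lgals3 cells of replicate 1 than in its members, against 3.51% of the 2824 genes. Some of them lay in few cells. In replicate 1 the 80 members richest in Gpnmb held 87.4% of its UMIs, and for Spp1 the 80 richest held 86.2%. Free RNA of replicate 1 held 1172 CPM of Gpnmb and 6504 CPM of Spp1, against 153 and 1677 CPM in replicate 2. Free RNA and mixed barcodes were not tested as sources.

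The collagen genes Col1a1 and Col1a2 and the matrix gene Mgp were also among the 45, at 92.1 and 20.01 CPM for Mgp. Mgp was found in 18 of 1590 and 12 of 2168 members. Of the 8 genes higher in replicate 2, 4 were hemoglobin genes, with Hbb-bs at 123 and 1077 CPM. The glucocorticoid-responsive factor Cebpd was another, with 63.3 and 134 CPM. Khdrbs3, an RNA-binding protein, and Chst7, a sulfotransferase, were the other named genes, with Chst7 at 25.1 and 54.5 CPM. P2ry12 itself, part of the rule, was lower in replicate 1 by less than 2-fold.

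**Figure D5:**
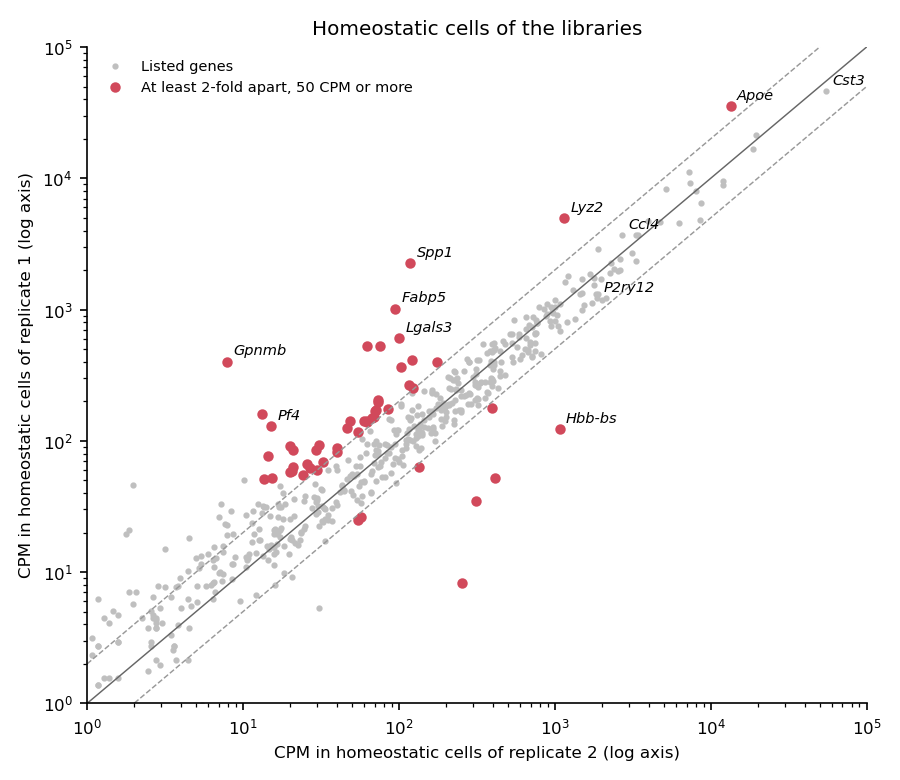
CPM of summed UMIs in homeostatic cells of replicate 2 (horizontal) and replicate 1 (vertical), both on log axes; red points are the 53 genes at least 2-fold apart with 50 CPM or more, grey points the genes of the lists, and dashed lines mark 2-fold. Macrophage genes such as Gpnmb, Spp1 and Fabp5 lie above the line and hemoglobin genes below it.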

How the data were processed

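Single-cell RNA-seq of sorted cells from the ischemic brain was measured in 2 libraries. The deposited matrices hold UMI counts per gene and barcode as whole numbers. Per the submitters' processing notes, Cell Ranger 4.0.0, STAR 2.5.1b and Seurat 4 were used with mouse builds GRCm38 and mm10; GRCh38 is also named, without a role. The libraries held 101893367 and 62850768 UMIs, and 15050 and 7910 barcodes passed the cell filter, at median depths of 5356 and 5891.5 UMIs. Precision is limited by this depth and by 2 libraries.

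Members, comparison sets and gene lists were chosen with earlier results of these data known, in part from an earlier analysis of the same files, and give no independent support. Counts were summed per set and library (12 profiles), filtered with filterByExpr, scaled by TMM and tested with edgeR 4.0.16 in R 4.3.3 (glmQLFit and glmQLFTest, 5 residual degrees of freedom, Benjamini-Hochberg over all genes, threshold 0.05). The library was a block, since each library contributes to both sets compared. Rule genes, and Lyz2 and Lgals3 against the Lyz2/Lgals3 cells, were left out of the tests. CPM values carry no TMM factor, while fold changes do; the factors were 1.099 and 1.176 in homeostatic cells and 0.7736 and 0.8306 in Lyz2/Lgals3 cells. Fits over the 5 microglia-gate sets (4 residual degrees of freedom) were chosen after seeing the data.

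Named genes were, per list and comparison, up to 3 each way with the largest log2 fold change among those past the threshold, at 20 CPM or more and with the same sign in both libraries, and beyond the lists the 12 largest each way at 50 CPM. Homeostatic genes were given whether or not they passed; some genes are not reported here. Other genes named for contrast or role were chosen after their values were seen. Doublets were not removed in the main analysis. Scrublet, run through scanpy 1.11.5, marked 1425 and 0 cells and so did not work in replicate 2; an alternative removed the highest scores, 1812 and 501 cells. Alternatives covered normalization (DESeq2 1.42.0, RLE), filters, gate thresholds, the block, doublets and held-out UMIs. On simulated counts of the Tnf/Il1a comparison (11413 genes) the test recovered 78 of 100 genes changed 2-fold and 100 of 100 changed 4-fold. There were 14 false calls among 11213. Simulated sets had equal means apart from genes above 20 CPM changed in homeostatic cells, and all genes had the same spread. The real sets differed in many more genes, so these rates need not hold for the real fit. No cause was tested. Promoters came from RefSeq on GRCm38.p6.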

Additional observations from a re-analysis of the deposited data

How the results depend on the processing

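The counts of called genes moved with the setting. Against Tnf/Il1a microglia, 2 genes were called, and 17 without a filter on low counts, 27 with DESeq2, 679 with only the 2 sets compared, 188 over the 5 microglia sets and 124 over these on held-out UMIs. The edgeR count was 0 without the replicate block, with M of at least 25, with the stricter cell filter and on held-out UMIs over all sets (368, 751, 501 and 234 genes at an unadjusted p under 0.05). Against Cst7-group microglia, 1018 genes were called, against 3 without the replicate block, 3088 with only the 2 sets compared, 2671 over the 5 microglia sets and 364 over these on held-out UMIs. The edgeR count was 0 with the stricter cell filter and on held-out UMIs over all sets (2287 and 788 at an unadjusted p under 0.05). Against Lyz2/Lgals3 cells, 6775 genes were called, against 4507 on held-out UMIs and 2805 with only the 2 sets compared. The cause was not tested. No gene called in the main fit was called with the opposite sign in another setting. Signs alone did change. Of the genes called against Cst7-group microglia, 14 had the opposite sign on held-out UMIs over all sets and 9 over microglia sets. Of those called against Lyz2/Lgals3 cells, 11 did on held-out UMIs. Against Tnf/Il1a microglia the interferon median over microglia sets moved from -0.25 to 0.21 on held-out UMIs, while the NF-kB median kept its sign. The share of members among microglia-gate cells was 35.3%. It moved to 60.8% where cells of at least 2000 UMIs were thinned to 2000 UMIs and gated again. Genes with a high Fano factor numbered 85 of 2501 and moved to 160 of 4176, with 711 of 1590 members of replicate 1 left out as too shallow. Leaving out a library gave shares of 10.6 to 27.4% of cells and 30.4 to 40.1% of gate cells. With 1 library left, no residual degrees of freedom remain and no calls can be counted, and the direction of named genes in each library is part of the naming rule. Low counts, 2 libraries and a rule that reads depth limit all comparisons.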
